A study of Mus musculus with 12 samples.

Results

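Toll-like receptors are pattern-recognition receptors of innate immunity that bind molecules of microbes at the cell surface or in endosomes, and most of them signal through the adaptor Myd88 to NF-kB. Nlrp3 is the sensor of an inflammasome, a complex that activates caspase-1 and so the maturation of interleukin-1 beta, and its own transcription is raised by Toll-like receptor signals. In bone marrow these genes are expressed mostly by monocytes, macrophages, neutrophils and dendritic cells, and some progenitor cells carry Toll-like receptors as well.

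The 10 genes described are 7 Toll-like receptors (Tlr2, Tlr4, Tlr6, Tlr7, Tlr8, Tlr9 and Tlr13), the lipopolysaccharide co-receptor Cd14, the adaptor Myd88 and Nlrp3. They were taken by gene symbol from a table of 31060 genes, and all 10 of them were among the 15630 genes with enough counts to be tested. RNA was sequenced from lineage-negative bone marrow cells of C57BL/6 mice, the fraction left once cells with markers of mature blood lineages have been removed. The groups were labelled Tet2+/-;Ins2Akita/+ (n = 3), Tet2+/- (n = 3), Ins2Akita/+ (n = 2) and WT (n = 3). Tet2+/- mice carry 1 disrupted copy of Tet2, a dioxygenase gene whose product starts the removal of methyl marks from DNA. Ins2Akita/+ mice carry a dominant misfolding allele of the insulin gene Ins2 and become hyperglycaemic. The series title places the comparison in hyperglycaemic stress and Tet2 haploinsufficiency. The labels give no age, no treatment and no construction of the Tet2 allele, and do not say whether libraries of a group came from separate mice. The p-values therefore describe the variation among libraries, which may be technical.

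Total counts were 14814409 to 22600405 per library, and levels in CPM (counts scaled to library size) were computed with TMM factors. A count of 3 equals 0.142 to 0.190 CPM, and the lowest count of any of the 10 genes in any library was 15. Tet2, the check of the labels, was at 66.5, 108 and 34.2 CPM in the libraries labelled Tet2+/-;Ins2Akita/+, at 19.0, 18.5 and 19.3 CPM in Tet2+/-, at 131 and 107 CPM in Ins2Akita/+ and at 91.2, 128 and 45.1 CPM in WT. Its log2 difference was -2.22 for Tet2+/- against WT and 1.88 for Tet2+/-;Ins2Akita/+ against Tet2+/-, without overlap in either comparison. It was low in every Tet2+/- library, further below WT than the loss of 1 of 2 copies alone would give. The cause of that was not tested. In the libraries labelled Tet2+/-;Ins2Akita/+ it overlapped WT, which goes against their label. The part of the gene that the allele removes is not given, so these animals are called the labelled double heterozygotes throughout. The libraries numbered 3 stood apart from numbers 1 and 2, with 3.43 to 9.76% of counts from mitochondrial genes against 1.36 to 1.94% in the other 8 libraries. The highest of these shares was that of the labelled double heterozygote numbered 3. Results are therefore given with and without them.

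Promoters are shown for the 3 genes whose CPM in all 3 labelled double heterozygotes lay above every other library (Tlr6, Tlr8 and Myd88), for Tlr9, which went the other way, and for Tlr2. RefSeq promoter windows (GRCm38.p6) were at hand for 7 of the 10 genes, in 9 windows, and each sequence gives the 250 bases before the annotated start, 5′ to 3′ on the gene's strand. Capitals mark matches to the NF-kB consensus, to GAGGAA (the core of the site of PU.1, a myeloid transcription factor) or to TATAAA, searched on both strands, with overlapping matches joined.
Tlr6, chr5:64960049-64960298, minus strand: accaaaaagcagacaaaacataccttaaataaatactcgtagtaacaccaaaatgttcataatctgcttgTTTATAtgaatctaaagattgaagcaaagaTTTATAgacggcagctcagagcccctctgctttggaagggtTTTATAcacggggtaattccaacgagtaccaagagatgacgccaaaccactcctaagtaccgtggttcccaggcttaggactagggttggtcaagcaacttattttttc
Tlr8, chrX:167264330-167264579, minus strand: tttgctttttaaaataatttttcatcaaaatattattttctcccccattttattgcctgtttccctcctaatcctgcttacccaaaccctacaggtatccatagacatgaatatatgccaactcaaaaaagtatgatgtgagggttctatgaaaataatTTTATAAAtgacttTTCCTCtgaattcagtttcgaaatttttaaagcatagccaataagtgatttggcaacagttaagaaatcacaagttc
Myd88, chr9:119340019-119340268, minus strand: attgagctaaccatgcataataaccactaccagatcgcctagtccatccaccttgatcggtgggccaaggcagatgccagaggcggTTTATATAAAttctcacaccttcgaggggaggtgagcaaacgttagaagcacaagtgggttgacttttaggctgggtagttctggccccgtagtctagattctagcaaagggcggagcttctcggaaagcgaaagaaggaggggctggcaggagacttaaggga
Tlr9, chr9:106222348-106222597, plus strand: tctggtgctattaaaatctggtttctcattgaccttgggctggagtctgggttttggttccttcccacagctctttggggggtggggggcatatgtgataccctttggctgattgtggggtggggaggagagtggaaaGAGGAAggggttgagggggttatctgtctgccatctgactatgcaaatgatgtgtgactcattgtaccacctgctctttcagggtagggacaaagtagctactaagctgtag
Tlr2, chr3:83841609-83841858, minus strand: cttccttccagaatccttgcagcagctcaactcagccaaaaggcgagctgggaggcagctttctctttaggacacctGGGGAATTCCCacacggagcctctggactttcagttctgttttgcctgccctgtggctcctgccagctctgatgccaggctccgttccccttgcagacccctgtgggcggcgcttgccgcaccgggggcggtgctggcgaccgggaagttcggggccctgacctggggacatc

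TATAAA stood in 3 of the 9 windows, those printed for Tlr6, Tlr8 and Myd88, and in 12.4% of all 32851 windows of the same length. The other window of Tlr6, at a start inside the gene, held none of the 3 motifs. The printed window of Myd88 and the Nlrp3 window with GAGGAA also lie inside the gene at the positions given below. Those of Tlr2 and Tlr13 and the printed window of Tlr6 lie partly inside it. GAGGAA stood in 4 windows, of Tlr8, Tlr9, Tlr13 and Nlrp3, and in 23.3% of all windows. The NF-kB consensus stood in 2 windows, of Tlr2 and Nlrp3, and in 7.25% of all windows. Such matches describe letters in a window and not binding.

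Positions of the genes are from GENCODE M21 on GRCm38. Tlr7 (chrX:167304929-167330558) and Tlr8 (chrX:167242696-167264329) lie close together on the minus strand, and Tlr13 (chrX:106143204-106160493) lies elsewhere on the same chromosome. Tlr9 (chr9:106222598-106226883) and Myd88 (chr9:119335934-119341411) share chromosome 9. The others are Tlr2 (chr3:83836272-83841767), Tlr4 (chr4:66827584-66930284), Tlr6 (chr5:64952031-64960097), Nlrp3 (chr11:59541568-59566956) and Cd14 (chr18:36725067-36726798).

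Per length of exon, Cd14 was the most abundant of the 10 genes, and Tlr6 and Tlr8 were the least. The mean over the 11 libraries was 103 CPM per kb for Cd14, 39.4 for Myd88, 33.6 for Tlr2 and 26.1 for Nlrp3. Tlr13 (6.84), Tlr7 (3.36), Tlr4 (2.91), Tlr9 (2.39), Tlr6 (1.20) and Tlr8 (0.899) followed on the same scale. The labelled double heterozygote numbered 2 was the highest library for 9 of the 10 genes, and the Tet2+/- library numbered 3 was the lowest for 8. The ratio of the highest to the lowest library ranged from 4.11 for Myd88 to 97.5 for Cd14.

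Tlr2, which forms pairs with Tlr1 or Tlr6 to bind bacterial lipoproteins at the cell surface, was at 168, 263 and 68.7 CPM in the labelled double heterozygotes, 129, 110 and 13.5 CPM in Tet2+/-, 95.7 and 63.9 CPM in Ins2Akita/+ and 91.6, 96.0 and 13.8 CPM in WT. Libraries 1 and 2 of the labelled double heterozygotes were above all others, while their library 3 fell among the range of the other genotypes. Tlr4, the receptor of lipopolysaccharide, was at 27.1, 30.9 and 12.1 CPM in the labelled double heterozygotes, 17.3, 8.72 and 1.40 CPM in Tet2+/-, 19.5 and 20.4 CPM in Ins2Akita/+ and 17.5, 19.6 and 3.21 CPM in WT. Its groups overlapped in the same way. Tlr6 was at 6.57, 11.5 and 5.64 CPM in the labelled double heterozygotes, 2.27, 1.60 and 1.11 CPM in Tet2+/-, 5.44 and 4.42 CPM in Ins2Akita/+ and 4.73, 4.48 and 1.39 CPM in WT. All 3 labelled double heterozygotes were above all 8 other libraries, the lowest of them at 5.64 CPM and the highest of the others at 5.44 CPM. That margin rests on 89 against 90 counts before scaling. This order held for 3 of the 10 genes and for 5.04% of all genes tested. Tlr6 shared 12.3% of its 50-base transcript stretches with other genes, nearly all with its paralog Tlr1, so counts could be split between the pair.

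Cd14, which hands lipopolysaccharide to Tlr4, was at 207, 413 and 333 CPM in the labelled double heterozygotes, 308, 223 and 24.7 CPM in Tet2+/-, 123 and 86.2 CPM in Ins2Akita/+ and 103, 136 and 4.23 CPM in WT. It was the gene whose number 3 libraries differed most by genotype. Number 3 stood at 107% of the mean of numbers 1 and 2 in the labelled double heterozygotes, at 9.33% in Tet2+/- and at 3.55% in WT. The labelled double heterozygotes were above all Ins2Akita/+ and WT libraries but overlapped Tet2+/-.

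**Figure D1:**
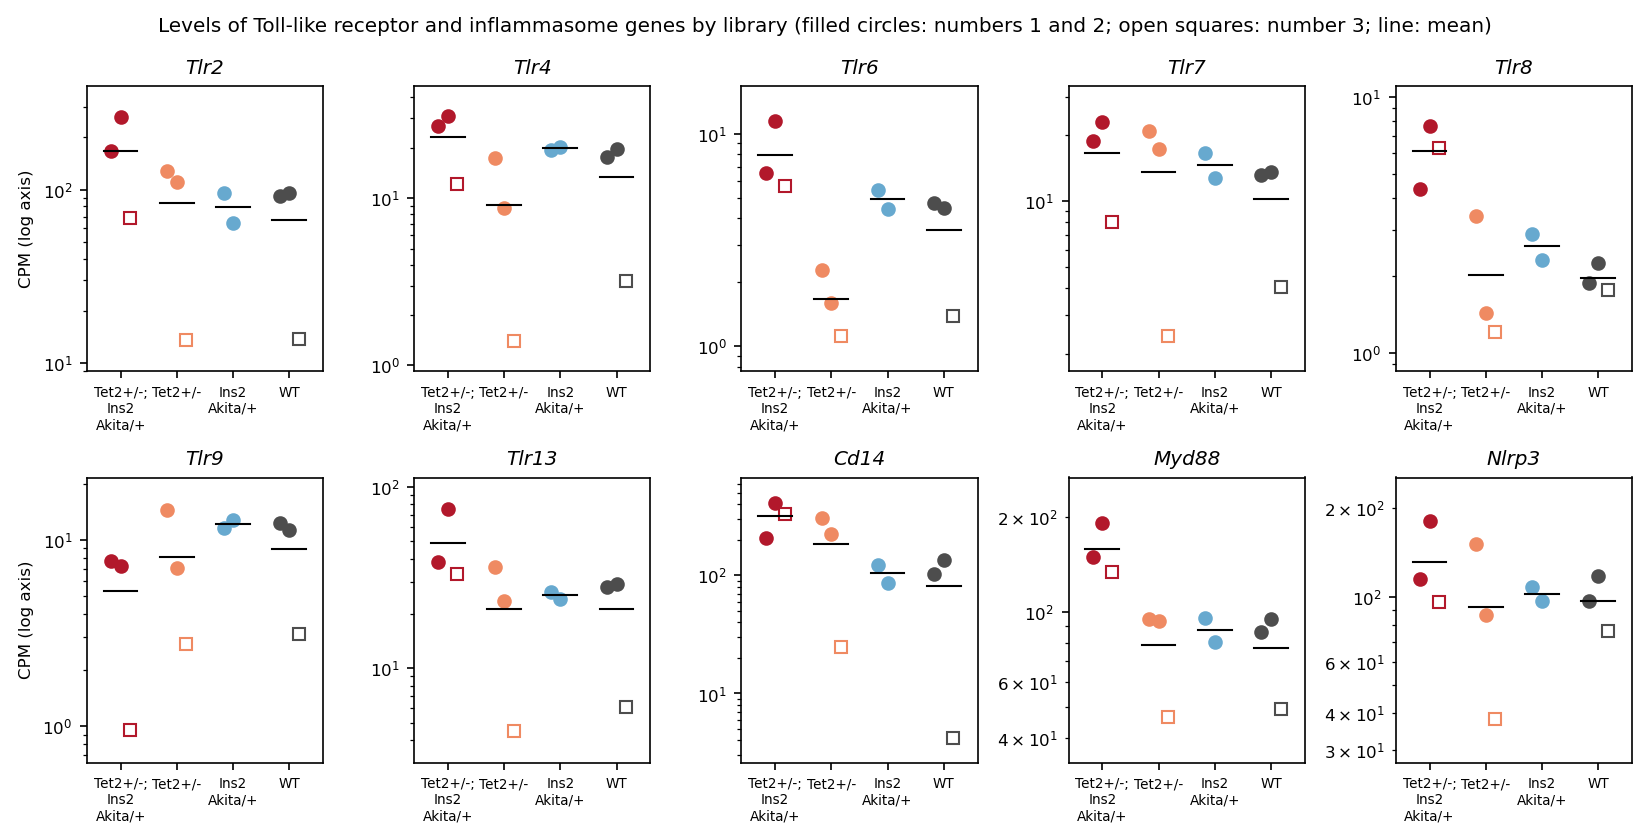
CPM (log axis) of the 10 genes in each of 11 libraries, by genotype, with filled circles for libraries 1 and 2, open squares for library 3 and a line at the mean. Tlr6, Tlr8 and Myd88 are the panels in which all 3 labelled double heterozygotes lie above all 8 other libraries, and Tlr9 is the panel in which their mean is the lowest.

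Among the endosomal receptors of nucleic acids, Tlr7, Tlr8 and Tlr13 had their highest means in the labelled double heterozygotes, and Tlr9 went the other way. In the labelled double heterozygotes Tlr7 overlapped every other genotype and Tlr13 overlapped Tet2+/-. Tlr8, whose human counterpart binds single-stranded RNA, was at 4.36, 7.71 and 6.28 CPM in the labelled double heterozygotes, 3.41, 1.42 and 1.21 CPM in Tet2+/-, 2.90 and 2.31 CPM in Ins2Akita/+ and 1.86, 2.24 and 1.75 CPM in WT. Its labelled double heterozygotes were above all 8 others, and both Ins2Akita/+ libraries were above all of WT. Tlr13, a receptor of bacterial ribosomal RNA, was at 38.5, 75.3 and 33.0 CPM in the labelled double heterozygotes, 35.9, 23.3 and 4.49 CPM in Tet2+/-, 26.2 and 24.1 CPM in Ins2Akita/+ and 28.1, 28.9 and 6.11 CPM in WT. A single Tet2+/- library, number 1, reached the range of the labelled double heterozygotes.

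Tlr7, a receptor of single-stranded RNA, was at 18.8, 23.2 and 7.99 CPM in the labelled double heterozygotes, 20.9, 17.3 and 2.42 CPM in Tet2+/-, 16.6 and 12.8 CPM in Ins2Akita/+ and 13.1, 13.6 and 4.05 CPM in WT. Tlr9, a receptor of unmethylated CpG DNA that plasmacytoid dendritic cells and B cells express strongly, was at 7.67, 7.26 and 0.951 CPM in the labelled double heterozygotes, 14.5, 7.06 and 2.75 CPM in Tet2+/-, 11.6 and 12.8 CPM in Ins2Akita/+ and 12.3, 11.4 and 3.15 CPM in WT. All 3 labelled double heterozygotes were below both Ins2Akita/+ libraries, and they overlapped WT and Tet2+/- through the number 3 libraries of those groups and Tet2+/- number 2.

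Myd88, the adaptor of all 7 receptors described, was at 149, 191 and 134 CPM in the labelled double heterozygotes, 95.3, 93.3 and 46.5 CPM in Tet2+/-, 95.7 and 80.1 CPM in Ins2Akita/+ and 86.5, 95.4 and 49.1 CPM in WT. Its lowest labelled double heterozygote lay at 134 CPM and the highest of the 8 others at 95.7 CPM. Exons of Myd88 overlap those of Acaa1a, a peroxisomal thiolase gene on the opposite strand. Acaa1a had 7189 counts over the 11 libraries, against 21182 for Myd88, and its log2 difference between the labelled double heterozygotes and WT was 0.49 (SE 0.22, edgeR adjusted p = 0.570). Whether reads were counted by strand is not given, so the part of Acaa1a in the Myd88 counts was not tested. Nlrp3 was at 115, 181 and 96.1 CPM in the labelled double heterozygotes, 151, 86.8 and 38.1 CPM in Tet2+/-, 108 and 96.5 CPM in Ins2Akita/+ and 96.4, 118 and 76.1 CPM in WT, and its groups overlapped in every comparison.

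In the test across all 15630 genes (edgeR's quasi-likelihood test, Benjamini-Hochberg adjusted p under 0.05), none of the 10 genes was called in any of the 6 comparisons. The share of all genes called was 0.0448% for the labelled double heterozygotes against WT, 0.262% against Tet2+/- and 0.0384% against Ins2Akita/+. It was 0.0256% for Tet2+/- against WT and 0% both for Ins2Akita/+ against WT and for the interaction of the genotypes. At an unadjusted p under 0.05 the 10 genes counted 3, 3 and 2 in the comparisons of the labelled double heterozygotes with WT, Tet2+/- and Ins2Akita/+, 0 for Tet2+/- and 0 for Ins2Akita/+ against WT and 1 for the interaction. The same threshold was passed by 8.79, 10.9, 6.60, 2.12, 0.429 and 3.44% of all genes in these comparisons. limma voom called 0 of the 10 in each comparison, where it called 0.0832, 0.205, 0.0192, 0.0256, 0 and 0% of all genes in the same order. DESeq2 called 1, 2, 0, 0, 0 and 0 of the 10, where it called 2.61, 3.44, 1.21, 0.288, 0 and 0.384% of all genes.

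Against WT, 9 of the 10 genes had a log2 difference above 0 in the labelled double heterozygotes, with a median of 1.10, beside a median of -0.05 over all genes tested. Tlr8 differed by 1.64 (SE 0.43, edgeR adjusted p = 0.229), and DESeq2 called it at an adjusted p of 0.0125. Myd88 differed by 1.04 (SE 0.33, edgeR adjusted p = 0.327). Cd14 differed by 1.97 (SE 1.06, edgeR adjusted p = 0.689). Tlr6 differed by 1.16 (SE 0.49), Tlr2 by 1.31 (SE 0.86), Tlr13 by 1.22 (SE 0.73), Tlr4 by 0.80 (SE 0.82), Tlr7 by 0.70 (SE 0.72) and Nlrp3 by 0.43 (SE 0.44), with edgeR adjusted p from 0.526 to 0.879. Tlr9 differed by -0.75 (SE 0.80, edgeR adjusted p = 0.882). CPM values did not overlap for 5 genes, all higher (Tlr6, Tlr8, Tlr13, Cd14 and Myd88), where 9.55% of all genes were higher and 8.57% lower without overlap.

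Whether libraries of equal number were paired could not be decided. With such libraries set side by side, the labelled double heterozygote was higher than WT in 3 of 3 numbers for 9 genes. Tlr9 was lower in 3 of 3. The ratios ran from 1.72 to 2.74 for Myd88, from 2.34 to 3.58 for Tlr8 and from 2.01 to 78.6 for Cd14. With the library number as a block, Myd88 rose by 1.10 on the log2 scale (edgeR adjusted p = 0.0334), the 1 member called, where 0.921% of all genes were called higher. Without the libraries numbered 3, Myd88 rose by 0.90 (edgeR adjusted p = 0.0260) and Tlr2 by 1.20 (edgeR adjusted p = 0.0435), where 1.63% of all genes were called higher.

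Against Tet2+/-, the labelled double heterozygotes again had 9 of the 10 genes above 0, with a median log2 difference of 0.998 beside -0.08 over all genes tested. Both comparisons share the labelled double heterozygotes. Tlr6 differed most, by 2.24 (SE 0.51, edgeR adjusted p = 0.124), and DESeq2 called it at an adjusted p of 0.00134. Tlr8 differed by 1.59 (SE 0.43, edgeR adjusted p = 0.193; DESeq2 adjusted p = 0.0145), Tlr4 by 1.35 (SE 0.83) and Myd88 by 1.01 (SE 0.33, edgeR adjusted p = 0.281). Tlr6, Tlr8 and Myd88 did not overlap, where 8.48% of all genes were higher and 6.68% lower without overlap. With the library number as a block, Tlr6 rose by 2.26 (edgeR adjusted p = 0.0182), Tlr4 by 1.78 (edgeR adjusted p = 0.0456) and Myd88 by 1.08 (edgeR adjusted p = 0.0232), where 2.83% of all genes were called higher. Without the libraries numbered 3, Tlr6, Tlr4 and Myd88 rose as well, by 2.21, 1.15 and 0.85 (edgeR adjusted p = 0.0104, 0.0452 and 0.0185), where 3.88% of all genes were called higher.

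Tlr7, Tlr9, Cd14 and Nlrp3 changed sides between these genotypes with the library number. In libraries of equal number the labelled double heterozygote had 0.673 to 13.5 times the Cd14 of Tet2+/- and 0.763 to 2.52 times its Nlrp3. It had 0.902 to 3.31 times its Tlr7 and 0.345 to 1.03 times its Tlr9. Tlr7, Cd14 and Nlrp3 were higher in 2 of 3 numbers and Tlr9 in 1 of 3. The log2 differences of Cd14 and Nlrp3 were 0.78 (SE 1.03) and 0.51 (SE 0.44).

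Against Ins2Akita/+, which has 2 libraries and none numbered 3, 9 genes were again above 0, with a median log2 difference of 0.76 beside 0.01 over all genes tested. Without overlap, 5 genes were higher, the same 5 as against WT, where 16.6% of all genes were. Tlr9 was lower without overlap, where 19.9% of all genes were. Tlr8 differed by 1.23 (SE 0.49, edgeR adjusted p = 0.682), Myd88 by 0.85 (SE 0.38, edgeR adjusted p = 0.753) and Tlr9 by -1.20 (SE 0.87, edgeR adjusted p = 0.927). Without the libraries numbered 3, Tlr2 rose by 1.43 (edgeR adjusted p = 0.0291) and Myd88 by 0.95 (edgeR adjusted p = 0.0251), where 1.62% of all genes were called higher.

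**Figure D2:**
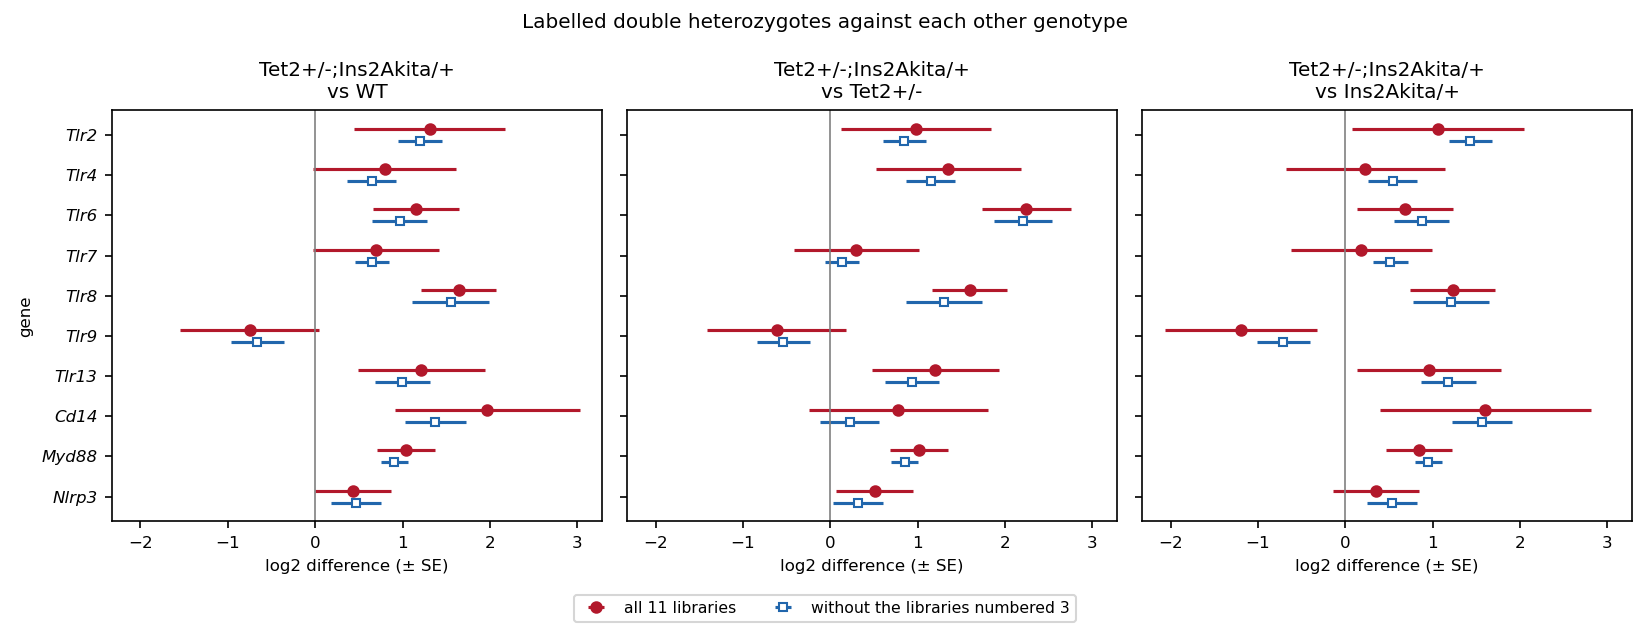
Log2 difference (± SE, edgeR) of each gene in the labelled double heterozygotes against WT, Tet2+/- and Ins2Akita/+, with all 11 libraries (circles) and without the libraries numbered 3 (squares). In each panel 9 genes lie right of 0 and Tlr9 lies left of it, and error bars are shorter for most genes without the libraries numbered 3.

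With each labelled allele alone the median difference from WT was smaller. In Tet2+/- against WT, 6 genes were above 0 and 4 below, with a median of 0.02 beside 0.03 over all genes. The widest differences were those of Cd14 (1.19, SE 1.03) and Tlr6 (-1.09, SE 0.50), each with an edgeR adjusted p of 0.99994. No gene was without overlap, where 2.07% of all genes were higher and 2.18% lower without overlap. Tlr6 was nevertheless lower in Tet2+/- in 3 of 3 library numbers, at 0.358 to 0.799 times WT, and Cd14 was higher in 3 of 3, at 1.64 to 5.84 times WT. In Ins2Akita/+ against WT all 10 genes were above 0, from 0.08 for Nlrp3 to 0.57 for Tlr4, with a median of 0.39 beside -0.01 over all genes. That median was -0.00 without the libraries numbered 3, of which WT has 1 and Ins2Akita/+ none. Tlr8 was higher without overlap, where 4.78% of all genes were higher and 6.86% lower without overlap.

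The interaction asks whether the labelled double heterozygotes differed from the sum of the effects of both alleles on the log2 scale. Of the 10 genes 8 were above 0 and 2 below (Tlr7 and Tlr9), with a median of 0.76 beside -0.02 over all genes. Tlr6 had the widest interaction, 1.77 (SE 0.75, edgeR adjusted p = 0.999991), followed by Tlr8 (1.18, SE 0.64) and Myd88 (0.82, SE 0.50). None of the 10 was called with the library number as a block, where 0.0192% of all genes were, or without the libraries numbered 3, where 0.0464% were.

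Other genes of the same pathway were not called by edgeR either, and their median differences were smaller. The members and these lists were chosen with earlier results of these data known, so this contrast is not a test. Of 61 genes in 6 lists, 57 had enough counts to be tested, and edgeR called none of them in any comparison. Tlr11, Sarm1, Naip1 and Nlrp6 were too low. In the labelled double heterozygotes, 35 of the 57 were above 0 against WT (median 0.10) and 37 against Tet2+/- (median 0.16), beside 9 of 10 of the members in each. At an unadjusted p under 0.05 these genes counted 5 (8.77%) and 6 (10.5%), near the shares of all genes (8.79 and 10.9%). DESeq2 called 2 higher against WT and 2 higher and 1 lower against Tet2+/-, where it called 2.61 and 3.44% of all genes in either direction. With the library number as a block, edgeR called 4 of them higher and 0 lower against Tet2+/-, where 2.83% of all genes were called higher. Without the libraries numbered 3 it called 2 higher and 3 lower. In that fit 585 of 15092 genes (3.88%) were called higher. The count of all genes called in either direction is given below with the other alternatives.

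Tlr1, the other partner of Tlr2, was at 3.86, 5.57 and 8.81 CPM in the labelled double heterozygotes, 2.23, 1.90 and 1.40 CPM in Tet2+/-, 1.63 and 1.87 CPM in Ins2Akita/+ and 2.62, 1.69 and 1.27 CPM in WT. The labelled double heterozygotes were above all other libraries. The log2 difference from WT was 1.70 (SE 0.41, edgeR adjusted p = 0.187; DESeq2 adjusted p = 0.00434). It was 1.72 from Tet2+/- and 1.79 from Ins2Akita/+, where Tlr6 differed by 2.24 and 0.68. Tlr5, the receptor of flagellin, differed from WT by 1.72 (SE 0.59, edgeR adjusted p = 0.372) at levels of 0.302 to 3.23 CPM, and Tlr12, a partner of Tlr11, by -0.21 (SE 0.44).

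Among co-receptors, Lbp, which carries lipopolysaccharide to Cd14, differed from WT by 1.35 (SE 0.89) in the labelled double heterozygotes, Cd36 by -0.79 (SE 0.64), and Cd180 and its partner Ly86, which restrain Tlr4 signalling in myeloid cells, by -0.99 (SE 0.41) and -0.63 (SE 0.50). Among adaptors and kinases, Tirap, which bridges Tlr2 and Tlr4 to Myd88, differed by 0.81 (SE 0.65) and Irak4, the kinase that Myd88 recruits, by 0.71 (SE 0.24, edgeR adjusted p = 0.372). Downstream of them, the ubiquitin ligase Traf6 differed by -0.36 (SE 0.45) and the transcription factor Irf7 by -0.19 (SE 0.25). Against Tet2+/-, with the library number as a block, Tirap rose by 1.36 (edgeR adjusted p = 0.0286) and Irak4 by 0.85 (edgeR adjusted p = 0.0469). In that fit 2.83% of all genes were called higher. Inhibitors of the pathway stayed within 0.44 of WT on the log2 scale for the 4 named by rule, which were Tnfaip3 (-0.32, SE 0.21), Sigirr (0.21, SE 0.24), Lyn (0.44, SE 0.49) and Inpp5d (-0.21, SE 0.31).

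Of 9 inflammasome sensors tested, 8 were above 0 against WT in the labelled double heterozygotes, with a median of 0.39. Nlrp12, a sensor of neutrophils and monocytes that restrains NF-kB, differed by 1.86 (SE 0.58, edgeR adjusted p = 0.317; DESeq2 adjusted p = 0.0483). Naip2, Naip5 and Naip6, which detect bacterial secretion proteins and flagellin for the Nlrc4 inflammasome, differed by 0.79 (SE 0.49), 0.40 (SE 0.32) and 0.34 (SE 0.38). Against Tet2+/-, with the library number as a block, Nlrc4 rose by 1.16 (edgeR adjusted p = 0.0408) and Naip2 by 0.94 (edgeR adjusted p = 0.0498). Again 2.83% of all genes were called higher there. Of the 10 adaptors, caspases and substrates, Il1b, which encodes the cytokine cut by caspase-1, differed from WT by 0.87 (SE 0.41, edgeR adjusted p = 0.610). It was at 53.4, 75.8 and 28.3 CPM in the labelled double heterozygotes, 50.001, 54.9 and 33.0 CPM in Tet2+/-, 34.9 and 24.2 CPM in Ins2Akita/+ and 35.6, 34.7 and 16.0 CPM in WT. Casp1, which encodes caspase-1 itself, differed by 0.50 (SE 0.43), its substrate Gsdmd by 0.48 (SE 0.32) and the adaptor Pycard by 0.42 (SE 0.28).

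**Figure D3:**
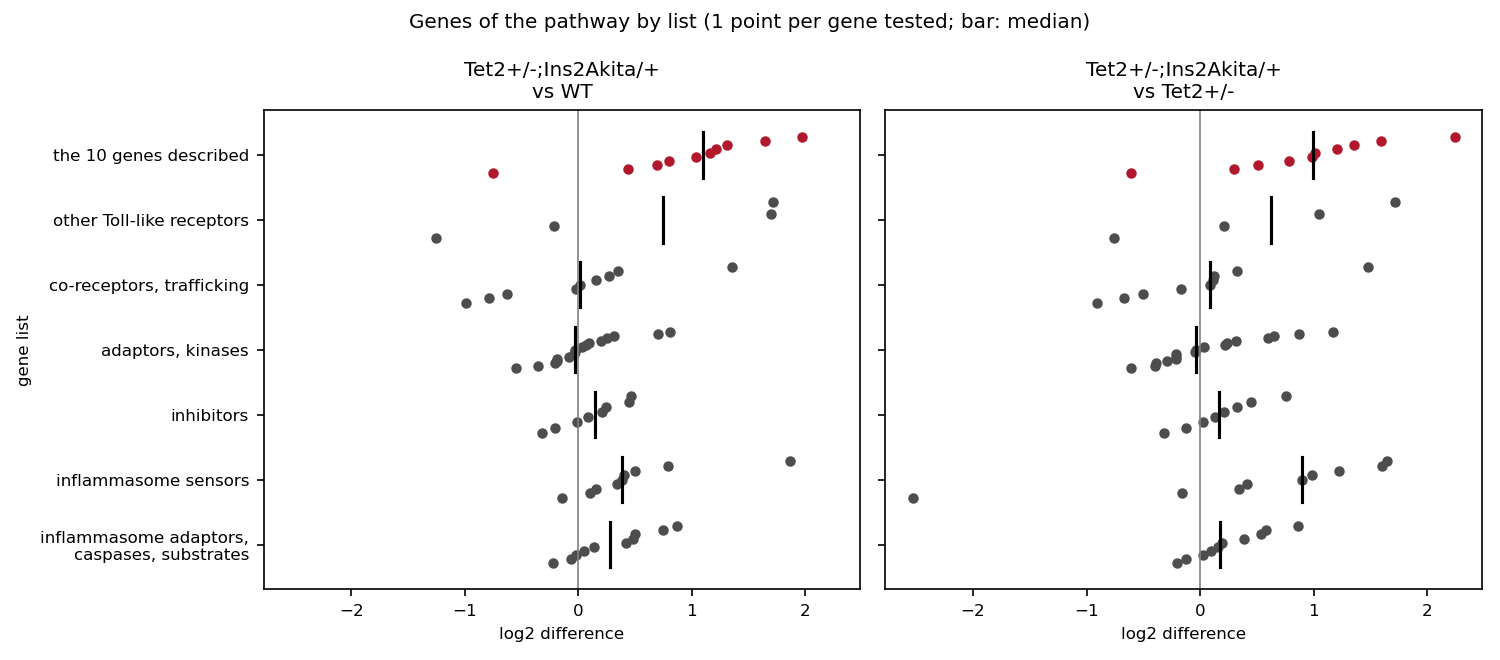
Log2 difference (edgeR) in the labelled double heterozygotes against WT and against Tet2+/-, with 1 point per tested gene, for the 10 genes described and the 6 other lists of the pathway, and a bar at each median. The 10 genes have medians of 1.10 and 0.998, while co-receptors and adaptors and kinases have medians near 0. The genes and lists were chosen with earlier results of these data known.

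Summed markers of maturing neutrophils were also highest in the labelled double heterozygotes, while those of monocytes and macrophages overlapped every other genotype. The summed level of 12 markers of maturing neutrophils was 45384 to 69975 CPM in the labelled double heterozygotes, 2994 to 28176 CPM in Tet2+/-, 15674 to 30316 CPM in Ins2Akita/+ and 2135 to 23183 CPM in WT, and all 12 had a log2 difference above 0 between the labelled double heterozygotes and WT (median 2.13). The sum of 10 markers of monocytes and macrophages was 1254 to 2602 CPM in the labelled double heterozygotes, 201 to 1861 CPM in Tet2+/-, 954 to 1576 CPM in Ins2Akita/+ and 350 to 1440 CPM in WT. Of these 10, 8 were above 0 and 2 below in the labelled double heterozygotes against WT (median 0.36). Cybb alone held 1021, 1343 and 764 CPM of that sum in the labelled double heterozygotes numbered 1, 2 and 3. The lowest sums of both lists in Tet2+/- and WT were those of the libraries numbered 3, where most of the 10 genes were also low. The sum of 10 erythroid markers was highest in these libraries, at 8347 CPM in Tet2+/- and 5095 CPM in WT. It was 2654 CPM in the labelled double heterozygote numbered 3. The sum of 5 neutrophil primary granule markers overlapped, at 7281 to 13584 CPM in the labelled double heterozygotes and 8959 to 11646 CPM in Ins2Akita/+. In the labelled double heterozygote numbered 3 the maturing neutrophil sum was 60882 CPM, beside 45384 and 69975 CPM in numbers 1 and 2. Its monocyte sum was 1254 CPM, beside 2081 and 2602 CPM. Relative to the mean of numbers 1 and 2 of that genotype, Tlr2, Tlr4, Tlr7 and Tlr9 stood at 31.9, 41.8, 38.0 and 12.7%. Tlr6, Tlr13, Myd88 and Nlrp3 stood at 62.5, 57.9, 79.0 and 64.9%, and Tlr8 and Cd14 at 104 and 107%. In bulk RNA, more cells of a type cannot be told apart from more RNA of a gene per cell, and the part of these markers in the differences was not tested.

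Markers of B lineage and dendritic cells were, like the mean of Tlr9, lowest in the labelled double heterozygotes. The sum of 7 markers of plasmacytoid dendritic cells was 182 to 251 CPM in the labelled double heterozygotes, 423 to 952 CPM in Tet2+/-, 512 to 518 CPM in Ins2Akita/+ and 539 to 657 CPM in WT. The sum of 10 B lineage markers was 58.8 to 79.6 CPM in the labelled double heterozygotes, 196 to 411 CPM in Tet2+/-, 197 to 205 CPM in Ins2Akita/+ and 161 to 229 CPM in WT. The sum of 8 markers of conventional dendritic cells was 133 to 167 CPM in the labelled double heterozygotes, 175 to 434 CPM in Tet2+/-, 277 to 285 CPM in Ins2Akita/+ and 269 to 353 CPM in WT. None of the 3 sums overlapped between the labelled double heterozygotes and any other genotype, and the part of these cells in the level of Tlr9 was not tested. Flt3 and H2-Aa held 64.3 and 62.6 CPM of the conventional dendritic sum in the labelled double heterozygote numbered 1. Flt3 itself overlapped WT, at 64.3, 57.8 and 79.9 CPM in the labelled double heterozygotes and 74.2, 76.2 and 80.5 CPM in WT. The 6 T and NK cell markers did overlap, at 142 to 181 CPM in the labelled double heterozygotes and 89.0 to 281 CPM in the other 8 libraries. In the libraries numbered 3 of Tet2+/- and WT, where Tlr9 was low, the plasmacytoid sums were 423 and 657 CPM. The B lineage sums of the same libraries were 196 and 161 CPM, and the conventional dendritic sums were 175 and 269 CPM. Each of these sums was the lowest of its genotype, except the plasmacytoid sum of WT, which was the highest. The 7 stem and progenitor markers summed to 225 to 417 CPM in the labelled double heterozygotes and 179 to 326 CPM in the other 8 libraries, and no marker of these lists was at 0 in any library.

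**Figure D4:**
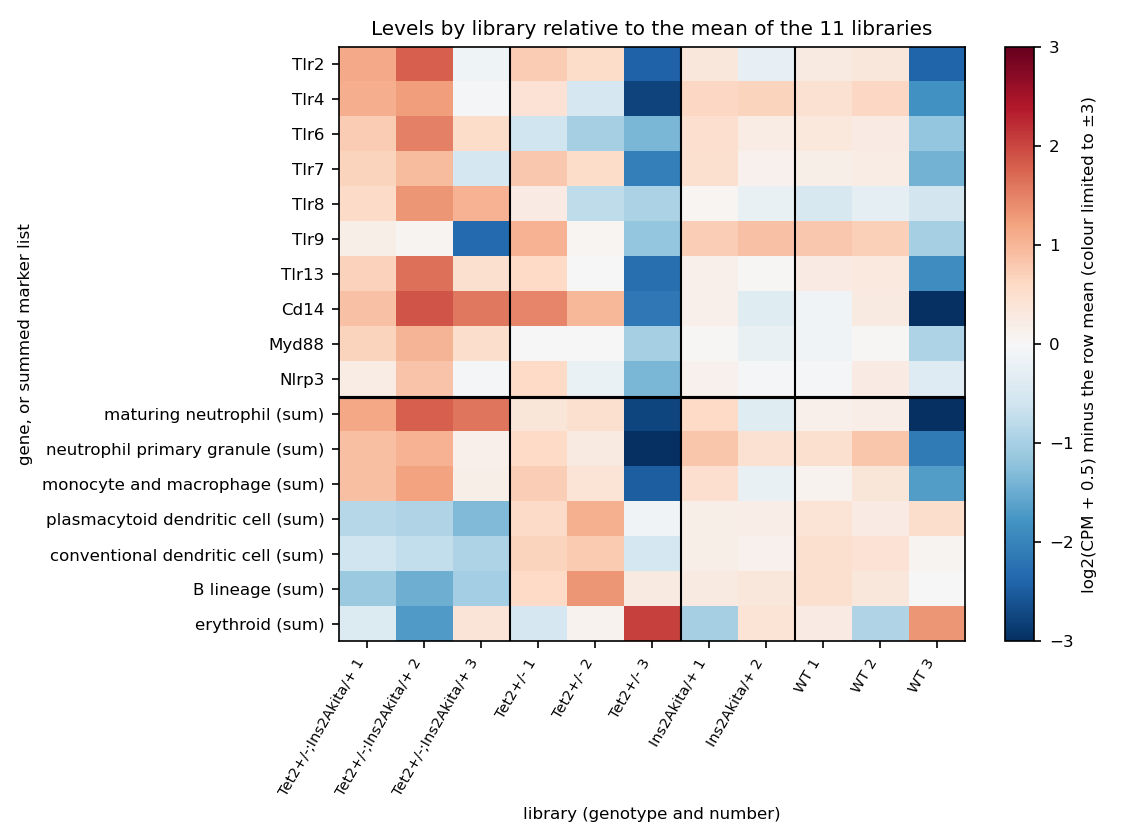
Log2(CPM + 0.5) minus the row mean over 11 libraries, for the 10 genes (above the line) and summed marker lists (below it), with libraries in columns by genotype. The number 3 columns of Tet2+/- and WT are low for most of the 10 genes and for both neutrophil lists and the monocyte list, and the plasmacytoid and B lineage rows are lowest in the labelled double heterozygotes.

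The 10 genes did not share a single pattern over the 11 libraries. Likeness was measured as the mean absolute difference of mean-centred log2 CPM, which carries no p, and libraries share genotype and quality. The measure is not scaled by the spread of each gene, so genes that vary little tend to lie closer to others. The closest pair of members was Tlr8 and Myd88, at 0.276, followed by Tlr2 and Tlr13, at 0.289. The farthest was Tlr9 and Cd14, at 1.41. Among 10087 genes of at least 5 CPM, Mapk3 lay closest to Myd88, at 0.0545, where the median gene lay at 0.537. Ly6c2, a monocyte marker, lay closest to Tlr2, at 0.195, where the median gene lay at 0.992. S100a9, a neutrophil marker, lay closest to Cd14, at 0.389, where the median gene lay at 1.35. Next after these came Scamp1 for Myd88, Pilrb1 for Tlr2 and Tgfbi for Cd14. For the others the closest genes were Mcf2l and Ptgs1 (Tlr4), Dock9 and Plin3 (Tlr6), Mapkapk2 and Slc2a6 (Tlr7), Ada and Qsox1 (Tlr8), Zc3h12c and Crybg1 (Tlr9), Ralb (Tlr13), and Pik3cg and Msn (Nlrp3). Their distances were 0.111 to 0.213.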

How the data were processed

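The authors deposited whole-number read counts for each gene in 1 table, without normalisation, per the file headers and the values. Per the submitters' processing notes, the tools were bcl2fastq, Trimmomatic 0.32 and TopHat2 2.1.1 and the build GRCm38. How reads were assigned to genes, and whether by strand, is not given in the sources used here. Of 12 labelled samples 11 have a matching column; the labelled double heterozygote numbered 4 was not analysed here, and 1 column that matches no label was not used.

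The test was the quasi-likelihood test of edgeR 4.0.16 (R 4.3.3) after filterByExpr and TMM scaling, with the 4 groups in 1 robust glmQLFit and glmQLFTest, with Benjamini-Hochberg adjusted p over 15630 genes and a threshold of 0.05. SE is the absolute log2 difference divided by the root of its F statistic. DESeq2 1.42.0 and limma 3.58.1 (voom) were alternatives, as were other scalings and filters, the groups compared alone, the library number as a block and each library left out. The fit was run on simulated data, and the outcome is not given here. The members and the gene lists were chosen with earlier results of these data known. All 10 members are named; of each other pathway list, called genes and up to 4 of the smallest p against WT with a mean of at least 1 CPM. Nlrc4 was named after its values were seen. Of the genes closest to each member, 1 is not reported here.

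Same-numbered libraries were checked for pairing by correlating their deviations from group means, which gave 0.485 to 0.791 between Tet2+/- and WT, 0.340 to 0.589 between the labelled double heterozygotes and WT and 0.318 to 0.533 between the labelled double heterozygotes and Tet2+/-. All are over 0.1, the rule by which the numbers, which come from the labels, were entered as a block. Libraries of different number gave -0.733 to 0.691, -0.583 to 0.372 and -0.517 to 0.462 in the same order. Some of them pass the rule too, so it cannot decide whether the libraries were paired. Same-numbered pairs with an Ins2Akita/+ library gave -0.351 to 0.264 and did not meet the rule of 0.1. All 11 libraries nevertheless entered the blocked fit, so Ins2Akita/+ and interaction values with it rest on an unmet assumption. Only 4 of 9 libraries were closest to their own number. Libraries within a group differed beyond sampling noise (chi-square per gene at least 15.6).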

Additional observations from a re-analysis of the deposited data

How the results depend on the processing

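Of the members' log2 differences under every alternative, 1224 kept their side of the threshold and 14 passed it where all libraries in the unblocked fit did not; no called difference changed sign. Members called numbered 1 against WT, 2 against Tet2+/- and 0 against Ins2Akita/+ with DESeq2; 1, 3 and 0 with the replicate block; and 2, 3 and 2 without the libraries numbered 3. They numbered 0 with each library left out and under the other scalings and filters. The replicate block changed no other call. Over all genes, counts moved more. Against WT the 7 calls became 52 with no filter, 408 with DESeq2, 13 with voom, 255 with the replicate block, 519 without the libraries numbered 3 and 1 to 49 with 1 library left out. Against Tet2+/- the 41 calls became 86, 8 at a mean of at least 5 CPM, 538 with DESeq2, 703 with the block, 0 in both groups alone, 1163 without number 3 and 0 to 66 with 1 left out. Against Ins2Akita/+ the 6 calls became 3 with upper quartile factors, 20 with no filter, 3 at 5 CPM, 189 with DESeq2, 3 with voom, 18 with the block, 1 in both groups alone, 436 without number 3 and 0 to 11 with 1 left out. In Tet2+/- against WT the 4 calls became 45 with DESeq2, 8 with the block, 2 in both groups alone, 22 without number 3 and 1 to 7 with 1 left out. For the interaction 0 calls became 3 with no filter, 60 with DESeq2, 3 with the block and 7 without number 3; the cause was not tested. For Ins2Akita/+ against WT every alternative gave 0 calls (67 genes at an unadjusted edgeR p under 0.05, 92 with DESeq2, 48 with voom). Uncalled differences crossed 0 in 0 of 208 values against WT, 3 of 208 against Tet2+/- (Tlr7 and Tlr9) and 2 of 208 against Ins2Akita/+ (Tlr4 and Tlr7). In Tet2+/- against WT 21 of 208 crossed 0, in Ins2Akita/+ against WT 16 of 208 and in the interaction 9 of 198, none of them under another scaling. Groups of 2 or 3 libraries limit the precision.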

Other observations

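Nlrp1b, an inflammasome sensor named after its values were seen, was high in libraries 1 and 2 of Tet2+/- alone. It was at 0.802, 0.746 and 0.380 CPM in the labelled double heterozygotes, 4.03, 6.47 and 0.870 CPM in Tet2+/-, 0.363 and 0.192 CPM in Ins2Akita/+ and 0.403, 0.398 and 1.03 CPM in WT. The log2 difference between Tet2+/- and WT was 2.63 (SE 0.72, edgeR adjusted p = 0.99994), and it was 3.69 without the libraries numbered 3 (edgeR adjusted p = 0.0186). Between the labelled double heterozygotes and Tet2+/- it was -2.53 (SE 0.71, edgeR adjusted p = 0.215), and -2.75 without those libraries (edgeR adjusted p = 0.00753). Among 8 libraries without number 3, Cd180 fell by 1.02 on the log2 scale against Tet2+/- (edgeR adjusted p = 0.0200), and Il1b rose by 1.13 against Ins2Akita/+ (edgeR adjusted p = 0.0378).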
